A study of Mus musculus with 4 samples.

Results

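The miR-129 family comprises the miRNAs cut from 2 mouse hairpins, Mir129-1 and Mir129-2, and was read here as the sequences of the deposited table listed under mmu-miR-129-5p, mmu-miR-129-1-3p and mmu-miR-129-2-3p (written below without the species prefix). These 3 names are 3 of the 1029 miRNA names in the table, and they hold 278 of its 85704 sequences: 109 for mmu-miR-129-5p, 89 for mmu-miR-129-1-3p and 80 for mmu-miR-129-2-3p. The names miR-1298-5p and miR-1298-3p share only their first characters with the family, were measured at 22.8 to 117 and 8.79 to 17.7 CPM, and were left out. The RNA came from male BL6 (C57BL/6J) mice, with no further allele or treatment in the labels, at 2 months (young) and at 18 months (old) of age. Cortex and hippocampus were combined, Argonaute (Ago) proteins were pulled down with a peptide of their partner GW182, and the short RNAs bound to them (R-sRNAs) were sequenced, with 2 libraries at each age. The comparison asks whether the content of the RNA-induced silencing complex (RISC) differs between young and old brain. The sources do not state that the libraries of an age are from separate mice, so the p-values measure the spread between these libraries, which may be technical.

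A miRNA hairpin is cut by Drosha and Dicer into a duplex, and the strand that stays in Ago guides it to messenger RNAs that pair with the seed near the 5′ end of the strand. The strand from the left side of the hairpin is called 5p and the one from the right side 3p. miR-129 is a brain miRNA family of neurons, and miR-129-5p is known for its part in homeostatic synaptic scaling, where it lowers synaptic strength under raised activity. A 6mer seed (positions 2 to 7) can also lower cell viability when it targets genes needed for survival, and the table holds for each sequence the viability tied to its seed in a screen of 3 mouse cell lines, in percent of control.

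The hairpins are shown because the same 5p strand comes from both of them, while the 3p strands tell them apart. They are RefSeq sequences of the build GRCm38.p6, printed 5′ to 3′ with the stretches of the most abundant 5p and 3p reads in capitals.
Mir129-1: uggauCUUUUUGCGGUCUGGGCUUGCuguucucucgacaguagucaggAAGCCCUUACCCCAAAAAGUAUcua
Mir129-2: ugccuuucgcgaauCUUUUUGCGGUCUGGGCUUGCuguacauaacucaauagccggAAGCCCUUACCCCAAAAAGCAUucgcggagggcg

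Mir129-1 lies at chr6:29022619-29022691 on the plus strand, inside exon 2 of the long non-coding RNA gene Gm3294 on the same strand. Mir129-2 lies at chr2:94241364-94241453 on the minus strand, in an intron of the long non-coding RNA gene Mir670hg on the same strand. A further annotated miRNA, Mir129b, lies on the opposite strand at chr2:94241378-94241442, and 0 of the deposited sequences matched the antisense of either hairpin.

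The most abundant forms carry the comparison between the arms. The capitals mark bases 2 to 8, the seed with its eighth base, and the RefSeq mature forms of miR-129-5p and miR-129-2-3p are followed by the most abundant deposited read of miR-129-1-3p.
miR-129-5p (RefSeq): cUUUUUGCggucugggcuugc
miR-129-2-3p (RefSeq): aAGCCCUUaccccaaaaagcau
miR-129-1-3p (read): aAGCCCTTaccccaaaaagtat

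The deposited reads with the sequences of the RefSeq forms were also the most abundant of their names. The 3p arms share 21 of 22 bases and differ by U20C, where the base of miR-129-1-3p stands first, positions count from 1 at the 5′ end and miR-129-2-3p has the last base. They therefore share the 6mer seed AGCCCU, while miR-129-5p has UUUUUG. No other miRNA name in the table carried either seed as any of its reads: the family held 98.9% to 99.1% of the CPM of all R-sRNAs with the seed UUUUUG and 98.5% to 98.7% of those with AGCCCU, and the rest was unnamed.

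The family made up 0.379% to 0.470% of all R-sRNAs, and its most abundant name in each of the 4 libraries was miR-129-2-3p. Levels are in CPM, counts scaled to the same total in each library. mmu-miR-129-2-3p measured 1597 CPM in young replicate 1, 1814 CPM in young replicate 2, 2318 CPM in old replicate 1 and 1625 CPM in old replicate 2, an order kept for the values below. mmu-miR-129-1-3p measured 935 and 1787 CPM in the young and 1048 and 1246 CPM in the old libraries. mmu-miR-129-5p, the arm known from synaptic scaling, measured 1517 and 1101 CPM in the young and 1015 and 920 CPM in the old libraries. On the scale of the deposited CPM, the ages overlapped for both 3p names, and both 18-month libraries lay below both 2-month libraries for miR-129-5p. Among all names tested, 41.4% were lower at 18 months with no overlap between the ages. By rank among all names, miR-129-2-3p stood at 69 to 84, miR-129-1-3p at 82 to 114 and miR-129-5p at 85 to 111.

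**Figure D1:**
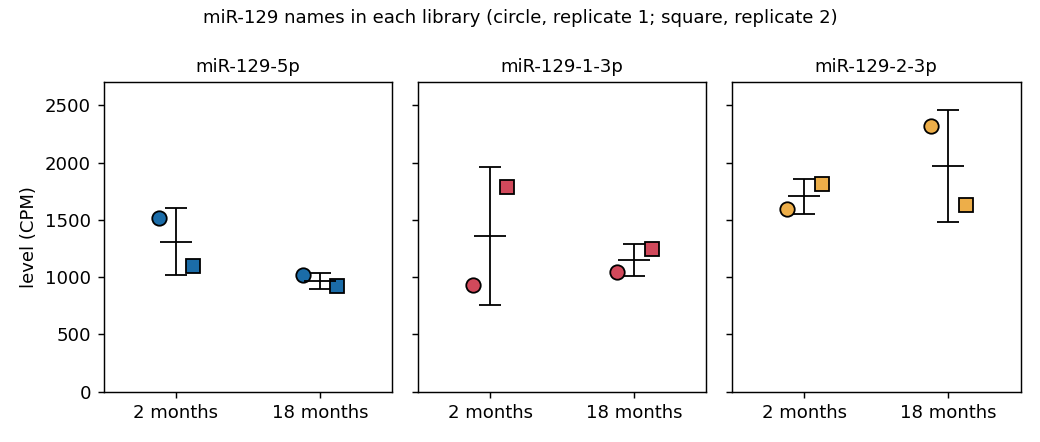
Level of each miR-129 name in CPM (y axis) in the 2 libraries of each age (x axis), with circles for replicate 1, squares for replicate 2, and a line with bars for the mean and SD (n = 2). The 2-month libraries of miR-129-1-3p lie furthest apart, at 935 and 1787 CPM, and miR-129-5p is the name whose ages do not overlap on this scale.

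Within each library miR-129-2-3p exceeded miR-129-1-3p by 1.71, 1.02, 2.21 and 1.30 times in the order just given, that is in 4 of 4 libraries. It exceeded miR-129-5p by 1.05, 1.65, 2.28 and 1.77 times. An exact permutation test that flips the sign of the difference within libraries gave 0.125 for each of these orders, the smallest p that 4 libraries allow. miR-129-1-3p and miR-129-5p changed places between libraries (0.617, 1.62, 1.03 and 1.36 times), and their order was not larger than its spread (exact permutation p = 0.625). In young replicate 1 miR-129-1-3p was the lowest of the 3 names, and in young replicate 2 it was nearly level with miR-129-2-3p.

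No miR-129 name passed the test for a difference between the ages. The test was limma on log2(CPM + 1), fitted over the 456 names of 10 CPM or more and called at an unadjusted p under 0.05, and 16.2% of all names tested passed it. Of the 3 members 0 passed, and 0 passed with edgeR's quasi-likelihood test or with DESeq2 on recovered reads. The log2 change from 2 to 18 months was -0.42 ± 0.24 (SE) for miR-129-5p, from 1309 ± 294 to 967 ± 67.6 CPM (SD, n = 2), with a Benjamini-Hochberg adjusted limma p of 0.419. For miR-129-1-3p it was -0.18 ± 0.34 (SE), from 1361 ± 603 to 1147 ± 140 CPM, with an adjusted limma p of 0.797. For miR-129-2-3p it was 0.19 ± 0.25 (SE), from 1706 ± 153 to 1972 ± 490 CPM, with an adjusted limma p of 0.706. These changes are relative to the total of each library, and the median change over all 456 names was -0.22 on the same scale. Rescaled by the median of ratios, which brought that median to -0.01, the log2 changes were -0.21 for miR-129-5p, 0.03 for miR-129-1-3p, which thereby changed its sign, and 0.40 for miR-129-2-3p. The factors of this rescaling were 1.092 and 1.061 for the young and 0.9125 and 0.9461 for the old libraries. Divided by them, the levels of miR-129-5p overlapped between the ages. The same rescaling turned the calls over all names from 19 higher and 55 lower at 18 months to 39 higher and 25 lower. In brain tissue, fewer cells of a type and less RNA per cell cannot be told apart.

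**Figure D2:**
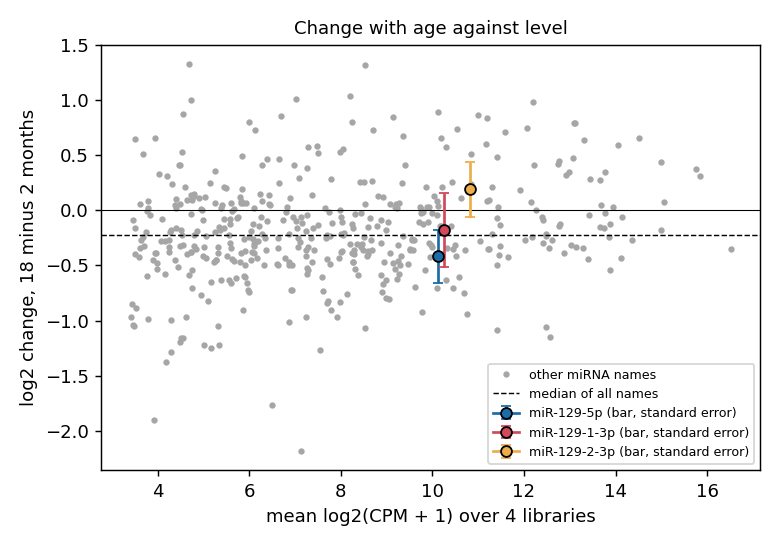
Log2 change from 2 to 18 months (y axis) against mean log2(CPM + 1) over 4 libraries (x axis) for the 456 names tested, with the miR-129 names in colour and their standard errors as bars. The dashed line is the median of all names, -0.22, and the bars of miR-129-5p and miR-129-1-3p cross it while miR-129-2-3p lies above it at 0.19 ± 0.25.

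Single libraries decided the sign of the change in both 3p names and its size in miR-129-5p. Leaving out a library leaves a single one at that age, so effect sizes are given here. Without replicate 2 at 2 months the log2 change of miR-129-5p was -0.65, and without replicate 1 at 2 months it was -0.19. Without replicate 1 at 2 months miR-129-1-3p stood at -0.64, and without replicate 2 at 2 months it turned to 0.29. Without replicate 1 at 18 months miR-129-2-3p turned to -0.07. The summed family measured 4049 and 4702 CPM in the young and 4382 and 3792 CPM in the old libraries, a log2 difference of -0.10 (exact permutation p = 0.667, where 2 libraries against 2 allow no p below 0.333). Rescaled, the difference of the sum was 0.11, and without replicate 2 of either age it was 0.01.

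More of the family's R-sRNAs came from the 3p side than from the 5p side in every library. Both 3p names together measured 2532 and 3602 CPM in the young and 3366 and 2872 CPM in the old libraries. The share of the 5p arm among the family's reads was 37.5% in replicate 1 at 2 months (95% Wilson interval 37.0% to 37.9%), 23.4% in replicate 2 (23.1% to 23.8%), 23.2% in replicate 1 at 18 months (22.8% to 23.6%) and 24.3% in replicate 2 (23.8% to 24.7%). Replicate 1 at 2 months thus stood apart, and the other 3 libraries lay within a narrow range. The intervals cover counting error only. The log2 ratio of 5p to 3p was -0.74 and -1.71 in the young and -1.73 and -1.64 in the old libraries. The difference between the ages was -0.46 ± 0.40 (SE), with an adjusted limma p of 0.868, and without replicate 1 at 2 months it was 0.02. Among the 155 stems with at least 10 CPM on both arms, 3.23% passed the same test, and the median change was -0.13.

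Compared with those stems the arms of miR-129 were close to balance. The minor arm held 26.9% of miR-129 and a median of 10.9% over all stems. The absolute log2 ratio of 1.45 was the 39th smallest of 155, beside a median of 3.02, and 62 of the 155 stems had more 3p than 5p. The next stems with a larger 5p share, among those of at least 100 CPM, were miR-324 (log2 5p to 3p ratio -1.39), miR-126a (-1.15) and miR-485 (-0.90). The next with a smaller 5p share were miR-700 (-1.56), miR-370 (-1.64) and miR-409 (-1.75). The spread of miR-129 over libraries, from -1.73 to -0.74, covered all of these but miR-409.

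**Figure D3:**
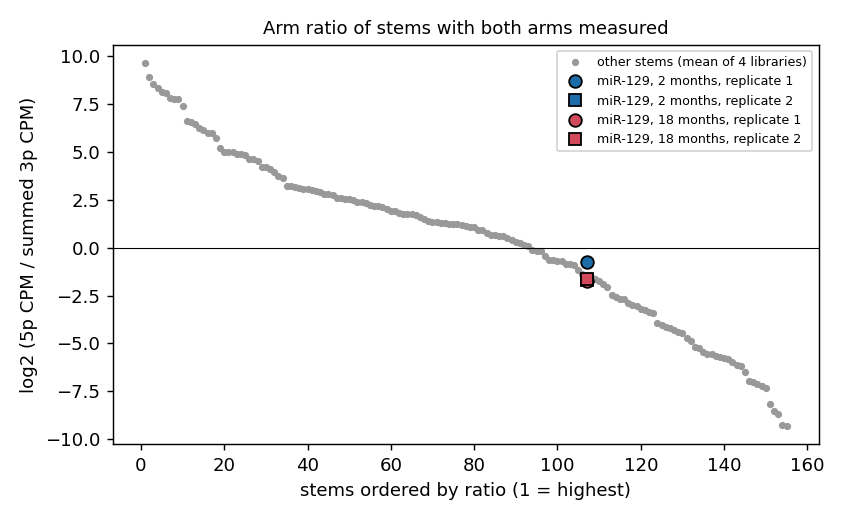
Log2 ratio of 5p to summed 3p CPM (y axis) for 155 stems in order of their mean ratio (x axis), with the 4 libraries of miR-129 drawn as symbols by age and replicate. Replicate 1 at 2 months lies at -0.74 and the other 3 libraries lie between -1.73 and -1.64.

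The 3p names can be told apart only by reads that reach base 20. Among the miR-129-2-3p sequences that contain the first 19 bases, 52 of 52 had C next, and these held 97.8% to 98.1% of its CPM. For miR-129-1-3p, 38 sequences had U there and held 90.3% to 93.8% of its CPM, and 4 sequences ended before it. The commonest of these is the stretch that both hairpins share, shown because it has no base that assigns it.
Shared 3p read: aAGCCCTTaccccaaaaag

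It was listed under miR-129-1-3p, at 43.1 and 99.8 CPM in the young and 44.2 and 87.7 CPM in the old libraries. Sequences that match both hairpins made up 4.67% to 7.70% of miR-129-1-3p and 0% of miR-129-2-3p. Restricted to exact matches that reach base 20, miR-129-2-3p exceeded miR-129-1-3p by 1.86 and 1.11 times at 2 months and by 2.41 and 1.48 times at 18 months. With the most abundant read of each name alone, the order was turned in replicate 2 at 2 months (0.878 times). The log2 ratio of miR-129-2-3p to miR-129-1-3p was 0.37 higher at 18 months (exact permutation p = 0.667), with values of 0.77 and 0.02 at 2 months and 1.15 and 0.38 at 18 months that overlapped. Without replicate 2 at 2 months and without replicate 1 at 18 months the difference was -0.01. Reads of miR-129-5p cannot be divided between the loci: 18 of its sequences match both hairpins and held 87.0% to 89.3% of its CPM, 1 matches Mir129-2 alone at no more than 0.286 CPM, and 0 match Mir129-1 alone.

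The 5′ ends, which set the seed, differed between the names. The main seed held 95.2% to 95.6% of miR-129-5p, 90.9% to 92.6% of miR-129-1-3p and 97.1% to 97.5% of miR-129-2-3p, beside a median of 96.8% over the 273 names of at least 100 CPM. The shifted forms are shown with the seeds that the shift gives them, again with bases 2 to 8 in capitals.
miR-129-5p, 1 base later: tTTTTGCGgtctgggcttgc
miR-129-1-3p, 1 base earlier: gAAGCCCTtaccccaaaaagt
miR-129-1-3p, 2 bases earlier: gGAAGCCCttaccccaaaaagt
miR-129-2-3p, 1 base later: aGCCCTTAccccaaaaagcat

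miR-129-5p started 1 base later in 3.82% to 4.33% of its CPM, which turns its seed into UUUUGC with a viability of 78.8%. miR-129-1-3p started 1 base earlier, with the seed AAGCCC and a viability of 39.3%, in 5.33% and 4.42% of its CPM at 2 months and 5.85% and 5.57% at 18 months. It started 2 bases earlier, with the seed GAAGCC and a viability of 14.6%, in 2.19% to 2.37%. miR-129-2-3p had the same 2 seeds in 0.519% to 0.624% and 0.0612% to 0.136% of its CPM, and the 2 bases before the 3p arm are the same in both hairpins. The longer 5′ ends were thus 4.73 percentage points (1 base) and 2.16 percentage points (2 bases) more frequent in miR-129-1-3p, higher in all 4 libraries by 3.89 to 5.22 and 2.06 to 2.24 points. Each difference gave an exact permutation p of 0.125 by sign changes within libraries, the smallest possible. In the other direction, a start 1 base later, with the seed GCCCUU and a viability of 23.6%, held 1.17% to 1.51% of miR-129-2-3p and 0.378% to 0.699% of miR-129-1-3p (exact permutation p = 0.125).

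**Figure D4:**
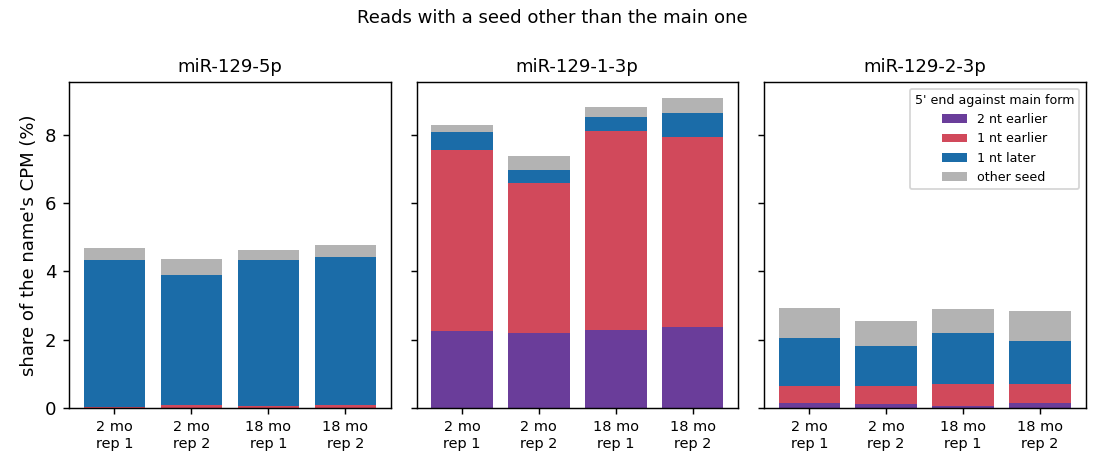
Share of each name's CPM (y axis, %) with a seed other than the main one, stacked by where the read starts against the main form, for each library (x axis). Earlier starts by 1 base reach 5.85% in miR-129-1-3p and no more than 0.624% in miR-129-2-3p, and a later start by 1 base makes up 3.82% to 4.33% of miR-129-5p.

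The 5′ ends did not pass the test between the ages in any of the 3 names. The main-seed share went from 95.5% ± 0.226 to 95.3% ± 0.108 in miR-129-5p (SD, n = 2), from 92.2% ± 0.663 to 91.0% ± 0.181 in miR-129-1-3p and from 97.3% ± 0.280 to 97.1% ± 0.0503 in miR-129-2-3p. The largest log2 change of the odds was -0.21 ± 0.16 (SE) in miR-129-1-3p, with an adjusted limma p of 0.919, and 3.66% of the 273 names passed. The 3′ ends set the length. The mean length was 20.9 to 21.0 nucleotides (nt) for miR-129-5p, 21.4 to 21.5 nt for miR-129-1-3p and 21.4 to 21.5 nt for miR-129-2-3p. It differed between the ages by 0.01 nt, -0.05 nt and 0.06 nt, with adjusted limma p-values of 0.929, 0.604 and 0.597, while 11.7% of the 273 names passed and their median change was -0.04 nt.

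Reads shortened at the 3′ end made up most of the variety of the 3p names. The most abundant shortened forms lack the last 2 bases of the 3p arms, and for miR-129-5p the last base.
miR-129-2-3p, 20 nt: aAGCCCTTaccccaaaaagc
miR-129-1-3p, 20 nt: aAGCCCTTaccccaaaaagt
miR-129-5p, 20 nt: cTTTTTGCggtctgggcttg

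The 20 nt form of miR-129-2-3p measured 276, 407, 415 and 286 CPM, beside 952, 997, 1410 and 1009 CPM of the 22 nt form. Its 21 nt form, which ends 1 base short of the arm, measured 265, 295, 349 and 224 CPM. The 20 nt form of miR-129-1-3p measured 109, 220, 137 and 153 CPM, beside 592, 1135, 631 and 732 CPM of its 22 nt form, and its 21 nt form measured 52.8, 99.8, 68.8 and 72.9 CPM. Reads of 22 nt held 66.8% to 70.5% of miR-129-1-3p and 57.7% to 64.8% of miR-129-2-3p. miR-129-5p was more uniform: its 21 nt form measured 1151, 793, 728 and 649 CPM, its 20 nt form 106, 112, 85.1 and 90.0 CPM, and reads of 21 nt held 75.6% to 80.3% of the name.

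Some reads carried bases at the 3′ end that the hairpin does not hold. Adenosines of this kind (1 to 3 bases after at least 15 hairpin bases) ended 6.14% and 6.87% of miR-129-5p at 2 months and 8.44% and 7.35% at 18 months. In miR-129-1-3p they ended 5.01% and 4.54% at 2 months and 5.79% and 5.84% at 18 months. In miR-129-2-3p the ages overlapped, with 1.845% and 1.902% at 2 months and 1.644% and 2.083% at 18 months. These shares were not tested between the ages and were not set beside those of other names. Uridines ended 2.26% to 2.84% of miR-129-5p, 0.604% to 0.770% of miR-129-1-3p and 0.0716% to 0.135% of miR-129-2-3p. These uridine shares cannot be compared between names. The hairpins continue with U after the full arms of miR-129-5p and miR-129-2-3p, so that a U there was not counted, but not after miR-129-1-3p. The full miR-129-2-3p arm followed by U held 0.775% to 1.31% of that name. The leading reads with bases that the hairpin does not hold are the 3p arms with their last base replaced by A and the miR-129-5p arm with a terminal A.
miR-129-1-3p with A: aAGCCCTTaccccaaaaagtaa
miR-129-5p with A: cTTTTTGCggtctgggcttgca
miR-129-2-3p with A: aAGCCCTTaccccaaaaagcaa

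That of miR-129-1-3p was the most abundant of them, at 36.3, 63.8, 48.3 and 57.1 CPM. That of miR-129-5p measured 48.6, 36.4, 42.7 and 31.1 CPM and that of miR-129-2-3p 25.2, 29.1, 34.4 and 29.8 CPM.

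Of the family's 278 sequences, 67 had a mean of at least 1 CPM and were tested among 14287 sequences, of which 10.1% passed the unadjusted threshold. The other 211 were not tested. Among the 67, 1 passed, and the same count was found with edgeR's quasi-likelihood test and with DESeq2. Their median log2 change was -0.04, beside -0.01 over all sequences tested. It was -0.26 over the 22 sequences of miR-129-5p, -0.05 over the 24 of miR-129-1-3p and 0.23 over the 21 of miR-129-2-3p. The sequence that passed, named after its values were seen, is miR-129-2-3p extended by a G that is not in the hairpin.
miR-129-2-3p with G: aAGCCCTTaccccaaaaagcatg

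It rose from 1.91 and 1.84 CPM to 10.4 and 3.86 CPM (log2 change 1.37 ± 0.43 SE, limma p adjusted over all sequences 0.366), on 20, 21, 110 and 35 reads, and did not pass without replicate 1 at 18 months. All named sequences above 10 CPM had adjusted limma p-values of 0.618 or more.

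The arms of miR-129 lay near opposite ends of the seed viability scale. The seed of miR-129-5p has a viability of 84.4%, and 234 of the other 272 names of at least 100 CPM had a main seed of lower viability. The seed shared by the 3p arms has a viability of 23.7%, and 15 names had a lower one, beside a median of 64.0% over all names. The gap of 60.7 points between the arms was the 5th largest in size of 155 stems, whose median gap was 21.5 points. These are properties of the sequences and of the screen, not measurements in the brain. The CPM-weighted mean viability over the reads of a name was 84.1% to 84.2% for miR-129-5p, 24.3% to 24.5% for miR-129-1-3p and 23.9% to 24.0% for miR-129-2-3p. It moved by -0.01, 0.13 and 0.003 percentage points from 2 to 18 months, with exact permutation p-values of 0.333, 0.333 and 1, where 0.333 is the smallest possible.

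**Figure D5:**
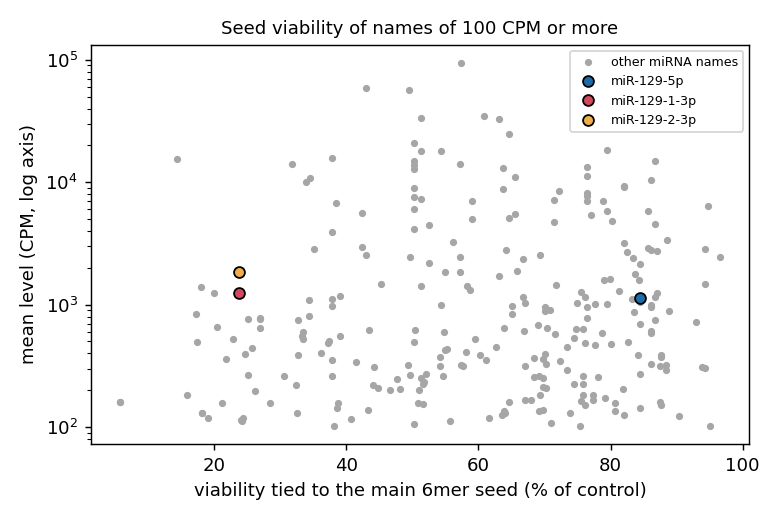
Mean level in CPM (y axis, log axis) against the viability tied to the main 6mer seed (x axis, % of control) for the 273 names of at least 100 CPM. miR-129-5p lies at 84.4% and both miR-129 3p names lie at 23.7%.

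Since most of the family's reads were 3p, its mean seed viability lay below that of the whole table. It was 46.6% and 38.2% at 2 months and 38.0% and 38.7% at 18 months, beside 57.7% to 58.4% over all R-sRNAs. The high value belonged to the library with the high 5p share, and the ages did not differ beyond the spread (-4.01 points, exact permutation p = 0.667). Among the names whose reads have a seed of 25% viability or less, miR-129-2-3p ranked 2nd with a mean of 1815 CPM, after miR-22-3p with 15338.2 CPM, and miR-129-1-3p ranked 5th with 1185 CPM. The family supplied 7.73% and 9.55% of all CPM with such seeds at 2 months and 13.0% and 9.79% at 18 months. These shares were not tested between the ages. The family's own level with such seeds overlapped between young (2459 and 3494 CPM) and old (3272 and 2775 CPM). The total over all R-sRNAs with such seeds was lower in both old libraries (25168.2 and 28350.4 CPM) than in both young ones (31795.7 and 36584.5 CPM). This total was not tested, and 41.4% of all names tested were likewise lower at 18 months with no overlap. Its largest part by name was miR-22-3p, which had a log2 change of -0.54 with an adjusted limma p of 0.335. Of the CPM with seeds of 80% or more, in contrast, the family supplied 0.724% to 1.39%.

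The profiles of the members over the 4 libraries were not alike. By the Euclidean distance between centred log2(CPM + 1) profiles, among 272 other names of at least 100 CPM, the closest to miR-129-5p were miR-185-5p (distance 0.08), miR-411-3p (0.12) and miR-433-3p (0.13). The closest to miR-129-1-3p were miR-708-5p (0.13), miR-142a-3p (0.23) and miR-425-3p (0.31), and the closest to miR-129-2-3p were miR-222-3p (0.14), miR-146a-5p (0.14) and miR-345-5p (0.20). The distance between the 3p names was 0.84, and the names ranked 130th and 174th in each other's order. miR-129-5p was 0.80 from miR-129-2-3p and 1.05 from miR-129-1-3p. These are distances over 4 libraries that share their scaling, and are given as a description.

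Other miRNAs of neurons and of synaptic scaling give the setting. Of 16 neuron-enriched miRNAs, all tested, 0 rose and 2 fell at the unadjusted threshold, namely miR-7a-5p (log2 change -0.57 ± 0.21 SE) and miR-124-5p (-0.53 ± 0.21 SE). Over all 456 names tested 4.17% rose and 12.1% fell by the same rule, so that this count is near the background. The median change of the list was -0.29, beside -0.22 over all names. The most abundant, miR-124-3p, which holds neuronal identity, measured 104114.8, 107034.1, 98221.5 and 69405.0 CPM. It was followed by miR-128-3p at 37432.6 to 69829.4 CPM and miR-9-5p at 25547.8 to 43876.2 CPM. Of 14 miRNAs known from neuronal activity and synaptic scaling, which share miR-124-3p, miR-132-3p, miR-138-5p, miR-212-3p and miR-218-5p with the first list, 0 passed in either direction by limma, and their median was -0.28. Among them miR-132-3p, induced by activity through CREB, measured 37398.3, 32033.1, 33493.0 and 27849.2 CPM, and miR-29a-3p measured 26218.9 to 44183.3 CPM.

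Among lists of markers of other cells, 1 had most of its tested members rise at the unadjusted threshold. Of 9 tested members of a list for choroid plexus and epithelium, 7 rose and 0 fell (median 0.74), beside the 4.17% of all names that rose. The adjusted limma p-values of these 7 were 0.249 to 0.282. The risers were the miR-200 family members miR-141-3p (0.98 ± 0.35 SE), miR-200b-3p, miR-200c-3p and miR-429-3p and the cluster of miR-96-5p, miR-182-5p and miR-183-5p, while miR-204-5p, the miRNA known from choroid plexus, had a log2 change of 0.09 and miR-211-5p was at 1.53 to 5.62 CPM. The 10 listed names summed to 35342.3, 59223.2, 72684.7 and 77849.6 CPM, lowest in the library with the high 5p share of miR-129. Of 6 endothelial and mural miRNAs 1 fell, miR-126a-3p (-1.15 ± 0.43 SE), beside 12.1% of all names. It measured 9242, 8854, 2557 and 6489 CPM, lowest in replicate 1 at 18 months. The other arm of its hairpin, miR-126a-5p, had a log2 change of -0.07 (adjusted limma p 0.901). Of the 6 changes 5 lay below 0, with a median of -0.28 beside -0.22 over all names. The list, miR-126a-3p included, summed to 20902.0 to 21346.2 CPM at 2 months and 12836.6 to 16313.4 CPM at 18 months. Of 4 oligodendrocyte miRNAs and of 6 tested miRNAs of microglia and blood cells 0 passed by limma. A further listed name, miR-486a-5p, was measured only jointly with miR-486b-5p (log2 change -0.46, adjusted limma p 0.327). It is left out of this count and of the sum that follows. The oligodendrocyte list summed to 8495, 12227.6, 6814 and 10535.2 CPM and the microglia and blood list to 2465, 4332, 2404 and 3560 CPM. Both sums were highest in replicate 2 at 2 months, where miR-129-1-3p was also highest. Of the oligodendrocyte members, only miR-219a-5p (1396, 6423, 2065 and 3617 CPM) was itself highest in that library. The largest members of the microglia and blood list were miR-451a (878, 1810, 1344 and 1684 CPM) and miR-144-3p (919, 1564, 354 and 1134 CPM). None of the markers found in the table was at 0 in a library. The part of these cells in the miR-129 values was not tested.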

How the data were processed

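Small RNA libraries of Ago-bound RNA, from 2 samples at 2 months and 2 at 18 months, were grouped by their labels. Per the labels the authors trimmed the reads with Trim Galore (version not given in the sources used here), and by the methods they pooled all reads in a common table, dropped the rarest, assigned names by BLAST against mouse small RNA lists and deposited scaled counts (CPM) for each sequence. The deposited score of a sequence is the viability that a screen of 3 mouse lines gave for its 6mer seed. A total signal over libraries that the authors deposited beside these values was not used. Transcript annotations in the deposited table name the build mm9, that of the miRNA matching is not given in the sources used here, and coordinates are those of RefSeq and GENCODE on GRCm38. Matching splits near-identical 3p arms by single bases, and the 3p sequences that match both hairpins were all listed under miR-129-1-3p. The members, lists and tests were chosen with earlier results of these data known.

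Whole reads were recovered from the CPM steps. 100% of nonzero values came out whole within 0.1, on 10484940 and 11388999 reads at 2 months and 10575081 and 9067007 at 18 months, so that 3 reads were worth 0.263 to 0.331 CPM. CPM was summed by name. limma 3.58.1 with an intensity trend was fitted two-sided to log2(CPM + 1) with age as covariate, over names of at least 10 CPM and sequences of at least 1 CPM. The same fit was used for the log2 arm ratio of stems (10 CPM on each arm), and for the log2 odds of the main seed (0.5 CPM added) and the mean length of names of at least 100 CPM. Calls were made at an unadjusted p under 0.05, and printed p-values are Benjamini-Hochberg adjusted over all features of the fit. Single values were compared by two-sided exact permutation tests. edgeR 4.0.16 and DESeq2 1.42.0 were run on recovered reads as alternatives, beside other pseudocounts, filters, scalings and the leaving out of libraries. Scripts were tested on simulated data. Text named the 3 members, their 4 most abundant sequences each, the leading sequence of each seed holding 1% or more of a name, sequences above 10 CPM that passed, the 3 nearest profiles, 3 stems on either side in arm ratio and up to 3 leading names of each list. Beyond this rule, chosen after their values were seen, the text names the passing miR-129-2-3p read under 10 CPM, the miR-129-1-3p read with A, the list members that passed, and miR-204-5p, miR-211-5p and miR-486a-5p. No per-sample column was left unassigned.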

Additional observations from a re-analysis of the deposited data

Results flagged for a closer look

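Reads of the miR-129 hairpins also occur among sequences to which the table gives no miRNA name, outside the values reported above. They comprise 189 sequences and 3080 reads over the 4 libraries, or 68.6 and 84.5 CPM in the young and 75.0 and 66.8 CPM in the old libraries, which is 1.69% to 1.80% of the named family. Of these sequences 133 differ from a hairpin by 1 mismatch, and 20 are fragments of 15 to 18 nt without a mismatch. They were picked out because they hold signal in rows that the comparisons did not use.

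For the same reason 1 unnamed sequence of 21 nt was picked out, which matches the Mir129-2 hairpin between its arms and has the seed GUACAU with a viability of 81.1%. It was counted 22 times, with 8 and 9 reads at 2 months and 5 and 0 reads at 18 months (0.763, 0.790, 0.473 and 0 CPM, where a count of 0 allows up to 0.331 CPM).
Mir129-2 loop read: tgtacataactcaatagccgg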

How the results depend on the processing

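Of the recomputed values that answer a comparison, 131 kept their direction and their side of the threshold, 13 turned their sign, 12 moved and 2 came to pass; among single reads 177 kept both and 18 turned. Rescaling by the median of ratios turned the log2 change of miR-129-1-3p to 0.0345 and that of the family sum to 0.11. It also turned the 21 nt miR-129-2-3p read, which stood at -0.0007, to 0.0122, and edgeR with TMM turned it to 0.0410 and DESeq2 to 0.0422. The 74 names that passed became 125 with no filter and 43 at a mean of 100 CPM or more. The 1443 sequences that passed became 3327 with no filter, 424 at a mean of 10 CPM or more and 941 with DESeq2, and the 1 miR-129 sequence became 6 and, at 10 CPM, 0. As weighted medians the seed viabilities of the 3 names moved by 0. The causes were not tested, apart from the number of features that a filter leaves.

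Leaving out 1 library at a time gave log2 changes of -0.65 to -0.19 for miR-129-5p, -0.64 to 0.29 for miR-129-1-3p, -0.0668 to 0.45 for miR-129-2-3p and -0.21 to 0.0095 for the family sum. The arm ratio ranged from -0.95 to 0.0243 and the ratio of the 3p names from -0.0143 to 0.75. Names passing numbered 55 to 74, sequences 1065 to 1411 and miR-129 sequences 0 to 2. Main-seed log2 odds ranged from -0.11 to -0.01 (miR-129-5p), -0.31 to -0.12 (miR-129-1-3p) and -0.18 to 0.0392 (miR-129-2-3p), mean length from -0.0126 to 0.0272 nt, -0.09 to -0.02 nt and 0.01 to 0.10 nt, and mean seed viability from -0.02 to -0.01, 0.08 to 0.18 and -0.0284 to 0.0344 points in the same order. Among named reads, in order of level, those of miR-129-1-3p ranged from -0.74 to 0.20 (22 nt), -0.60 to 0.40 (20 nt), -0.49 to 0.42 (21 nt), -0.67 to 0.52 (19 nt), -0.0880 to 0.50 (1 base earlier) and -0.63 to 0.31 (2 bases earlier). Those of miR-129-2-3p ranged from -0.24 to 0.32 (20 nt) and -0.32 to 0.32 (21 nt), and the miR-129-5p read with A from -0.42 to 0.0241.

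A fit with a replicate block left the log2 changes of the 3 names at -0.42, -0.18 and 0.19, and 79 names and 1530 sequences passed. The number is only shared by the samples: deviations of same-numbered libraries correlated at 0.180, and no source pairs them. The depth bounds single reads, since 3 reads were worth 0.263 to 0.331 CPM.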
